A study of Apis mellifera with 2 samples.

Results

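miR-275 and miR-305 (ame-miR-275 and ame-miR-305 in the table) are a pair of miRNAs that lie next to each other in the honey bee genome. They were chosen by name as genome neighbours, and also for their abundance, miR-275 ranking 1 and miR-305 ranking 4 in both larval libraries. Their high abundance is therefore a description and not a result. They are 2 of 53 named miRNAs and of 692 entries in all, the other 639 being predicted miRNAs. The libraries came from whole larvae of Apis mellifera ligustica, of a breed kept for its high royal jelly yield. Queen larvae had been moved into queen cups when less than 18 h old after hatching, 150 in each of 3 colonies, and worker larvae were collected beside them. Larvae of both castes were taken on days 4, 5 and 6, between 73 and 138 h after hatching, with 40 to 60 per colony. RNA of the 3 days was pooled into 1 queen library and 1 worker library. The study asked how small RNA differs between the castes, which can arise from the same fertilised eggs through different feeding. With 1 library per caste there is no replicate error and no p-value. All intervals are 95% intervals that cover counting error only, and how colonies or larvae vary within a caste was not measured.

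miRNAs are short RNAs that guide Argonaute proteins to messenger RNAs and lower their output, and the choice of targets rests mainly on the seed near the 5′ end. miRNAs that lie close together on 1 strand are often cut from a shared primary transcript, after which each is processed, loaded and degraded on its own. In Drosophila, miR-275 and miR-305 are also genome neighbours. There, miR-305 acts in intestinal stem cells, where it targets components of the Notch and insulin pathways and helps the gut adapt to nutrition. In the mosquito Aedes aegypti, miR-275 is required for blood digestion and egg development. What either miRNA does in bee larvae was not measured in these libraries. In the RefSeq annotation of assembly Amel_HAv3.1 the genes Mir275 and Mir305 lie within 1 kb of each other on the same chromosome, with 0 annotated genes between them. Both lie inside the span of LOC102655676, annotated as a long non-coding RNA gene, and no other named miRNA of the table lies within 50 kb of either. Strand is not given in the table used, so whether the 3 genes are transcribed in the same direction was not examined.

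The first comparison asked how much of each library the pair took up. miR-275 had 1035987 counts in queen larvae and 783672 in worker larvae. As a share of listed counts this was 39.0% (38.9 to 39.0) and 33.8% (33.7 to 33.9). It ranked 1 among all entries in both libraries, 2.38-fold above miR-184, the next entry, among queens and 1.88-fold above miR-1, the next entry, among workers. miR-305 had 231014 counts in queen larvae and 135048 in worker larvae, a share of 8.69% (8.66 to 8.72) and 5.82% (5.79 to 5.85). It ranked 4 in both libraries. Its distance to the entry below differed, being 2.07-fold above miR-996 among queens and 1.17-fold above miR-31a among workers.

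Together the pair held 1267001 queen counts and 918720 worker counts. The joint share was 47.7% of the queen library (47.6 to 47.7) and 39.6% of the worker library (39.6 to 39.7), a difference of 8.04 percentage points (7.95 to 8.13). miR-275 gave 5.17 of these points and miR-305 gave 2.87, although miR-305 is much the rarer of them. Per count of any other entry, the queen library held 0.911 counts of the pair and the worker library 0.656, 1.39-fold more among queens (1.38 to 1.39). The pair had 1.52 times the summed counts of miR-184 and miR-1, which both rank above miR-305, in queen larvae and 1.22 times in worker larvae. Shares describe composition, so a larger share does not show more molecules per larva. In whole larvae, more cells that make a miRNA and more of it per cell cannot be told apart.

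**Figure D1:**
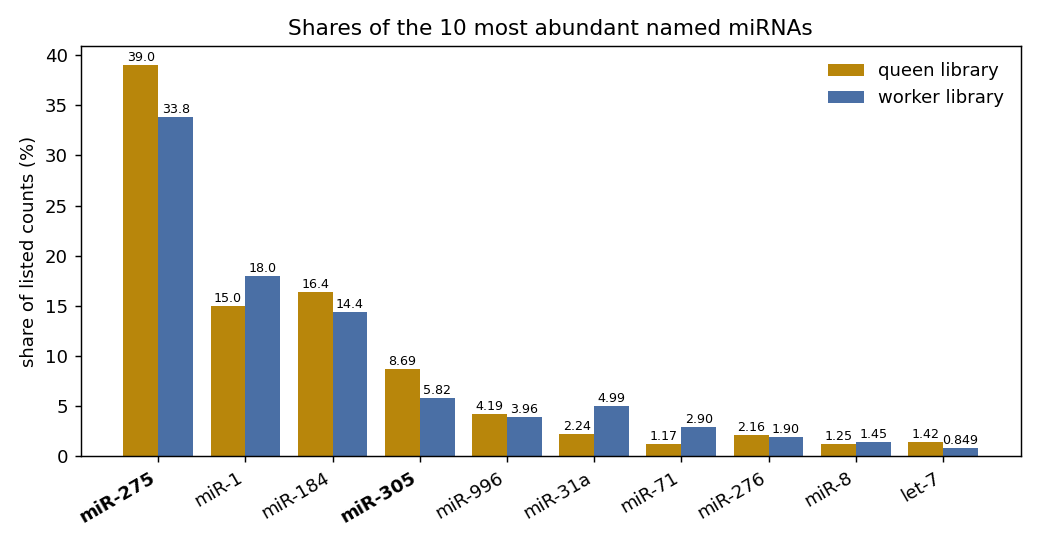
Share of listed counts, in percent, of the 10 named miRNAs with the highest mean share, in the queen library (gold bars) and the worker library (blue bars), 1 library each, with the share printed above each bar. miR-275 stands at 39.0% and 33.8% and miR-305 at 8.69% and 5.82%, both higher in the queen library. By contrast, miR-1, miR-31a, miR-71 and miR-8 are higher in the worker library.

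The pair's extra counts in the queen library slightly exceeded the difference in listed totals between the libraries. The queen library had 2658259 listed counts and the worker library 2318675, a difference of 339584. The pair alone had 348281 more counts in the queen library, 252315 from miR-275 and 95966 from miR-305. The remaining 690 entries had 1391258 queen counts and 1399955 worker counts, 8697 more in the worker library. Outside the pair the summed counts were therefore almost equal, the queen sum being 0.994 times the worker sum (0.991 to 0.996), against 1.15 times with the pair. That is a net of changes both ways: miR-184 had 435758 queen and 333644 worker counts, miR-31a 59518 and 115613. It does not show which scale is right. Without the 5 most abundant miRNAs the queen total was 0.799 times the worker total.

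The second comparison took the ratio of miR-305 to miR-275 within each library, which no scaling of the libraries can change. There were 0.223 counts of miR-305 per count of miR-275 in the queen library (0.222 to 0.224), or 1 per 4.48 counts of miR-275. In the worker library there were 0.172 (0.171 to 0.173), or 1 per 5.80. miR-305 thus made up 18.2% of the pair's counts among queens (18.2 to 18.3) and 14.7% among workers (14.6 to 14.8). The ratio was 1.29-fold higher among queens, a log2 change of 0.37 (0.36 to 0.38). The intervals of the libraries lie far apart, but without replicates it cannot be said whether the difference exceeds the spread between libraries of 1 caste. Ligation and PCR favour some sequences, so 0.223 and 0.172 are not molar ratios. A bias of that kind that is equal in both libraries cancels from the 1.29-fold change.

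Other named miRNAs that neighbour each other within 10 kb give a scale for this change. There were 13 such pairs with at least 20 counts for each miRNA, this one included, and they share members, since they come from a few clusters. Ordered by the size of the change in either direction, miR-305 over miR-275 was number 10 of the 13. Their median change was 1.70-fold. Of the other 12 pairs, 7 changed by at least 1.5-fold in either direction with an interval that excluded 1, or 58.3%. Among all 1176 pairs of the 49 named miRNAs that reached 20 counts, neighbours or not, this held for 58.5%, and the median change was 1.73-fold. The pair of miR-275 and miR-305 did not reach 1.5-fold.

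Pairs with changes of like size were miR-2 over miR-71, whose ratio was 1.25-fold higher among queens (0.26 to 0.38 on the log2 scale), and miR-12 over miR-283, 1.38-fold higher among queens (0.39 to 0.54 on the log2 scale). The ratio of miR-13b to miR-71 was 0.735 times that of the worker library (0.701 to 0.771). In the let-7 complex, the developmental timing cluster, the ratio of miR-100 to let-7 was 0.542 times that of the worker library (0.526 to 0.559), while miR-125 over miR-100 was 0.947 times (0.851 to 1.05), an interval that holds 1. miR-279 over miR-996 had a log2 change of −0.01 (−0.06 to 0.04), likewise with no change inside the interval. The widest change was that of miR-13a over miR-13b, 3.02-fold higher among queens (2.14 to 4.25), on 67 and 65 counts of miR-13a. Ratios within the miR-2 and miR-13 family, and of miR-279 to miR-996, are uncertain, because the sources do not say how the authors counted reads that match near-identical miRNAs.

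**Figure D2:**
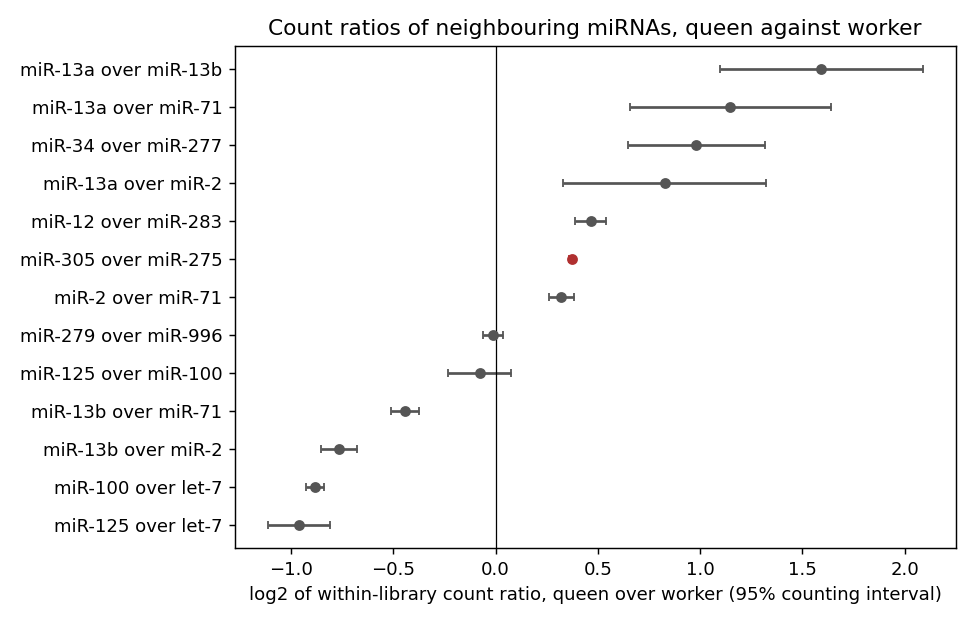
Change between the castes in the count ratio of 2 neighbouring miRNAs, as log2 of the queen ratio over the worker ratio (horizontal axis), for 13 pairs within 10 kb. Points are values from 1 library per caste, bars are 95% counting intervals, and the red point is miR-305 over miR-275 at 0.37, which lies nearer to 0 than 9 of the other pairs.

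The third comparison asked how each member differed between the castes relative to the rest of the library. Scaled to listed counts, miR-305 was 1.49-fold higher among queens (0.57 to 0.59 on the log2 scale) and miR-275 was 1.15-fold higher (0.20 to 0.21). Neither reached 2-fold with an interval excluding 1. The background is uneven: 2.04% of the 49 assessed named miRNAs were at 2-fold or more toward queens and 24.5% toward workers, while 11.0% and 28.7% of all 136 assessed entries were. With TMM or median-of-ratios factors the calls among the other 47 named miRNAs were 3 toward queens and 9 toward workers, and without the 5 most abundant miRNAs 4 and 9, against 1 and 12 with listed totals. From the most queen-sided ratio to the most worker-sided, miR-305 stood at number 4 of 49 and miR-275 at number 6. miR-375 headed the order, at a log2 ratio of 1.51, and let-7 at 0.74 and miR-315 at 0.74 followed. miR-210 lay between the members at 0.49, but its interval of −0.09 to 1.09 on 66 and 41 counts overlaps both, so its place is not settled by these counts. Below miR-275, the interval of miR-276 (0.17 to 0.20) also overlapped that of miR-275 (0.20 to 0.21). The intervals of miR-305 and miR-315 (0.60 to 0.87) came close without overlapping.

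The named miRNAs most like miR-275 in their queen over worker ratio, out of 33 others with at least 1000 counts, were miR-184, miR-276 and miR-12. miR-184 had a log2 ratio of 0.19, 0.02 from that of miR-275 at 0.21. miR-276 lay 0.02 away and miR-12 0.09 away. Most like miR-305 were miR-315 and let-7, each 0.16 away, and then miR-184, 0.39 away. Likeness here rests on 1 ratio between 2 libraries.

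The size of both ratios depends on the scaling, and the direction did not under the 10 scalings computed. These scalings are not independent support for the direction. Each moves both members by the same amount, and leaving a member with a higher queen share out of the totals raises both ratios by construction. TMM and median of ratios each enter from all entries and again from well-counted entries. miR-275 ranged from 0.18 to 0.73 on the log2 scale and was below 2-fold under all 10. miR-305 ranged from 0.56 to 1.10 and passed 2-fold under 4 of them. With TMM factors from all entries, which scale to the trimmed bulk of the table, its log2 ratio was 1.003 (0.99 to 1.01), and with TMM factors from entries with at least 20 counts it was 0.98 (0.97 to 0.99). With median-of-ratios factors miR-305 was 2.05-fold higher among queens from all entries and 2.03-fold higher from the entries with at least 20 counts. The factor from all entries rests on the ratio of 1 entry with 55 counts, the median of 165 entries, of which 44 had fewer than 20 counts. The factor from entries with at least 20 counts is likewise a median, over 121 entries, and so also rests on the middle ratio. The intervals treat every factor as exact, so whether miR-305 passes 2-fold is not settled. Without the 5 most abundant miRNAs in the totals, a set that holds both members, it was 2.14-fold higher. With the pair itself left out of the totals, miR-305 stood at 1.72-fold (1.71 to 1.73) and miR-275 at 1.33-fold (1.33 to 1.33).

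**Figure D3:**
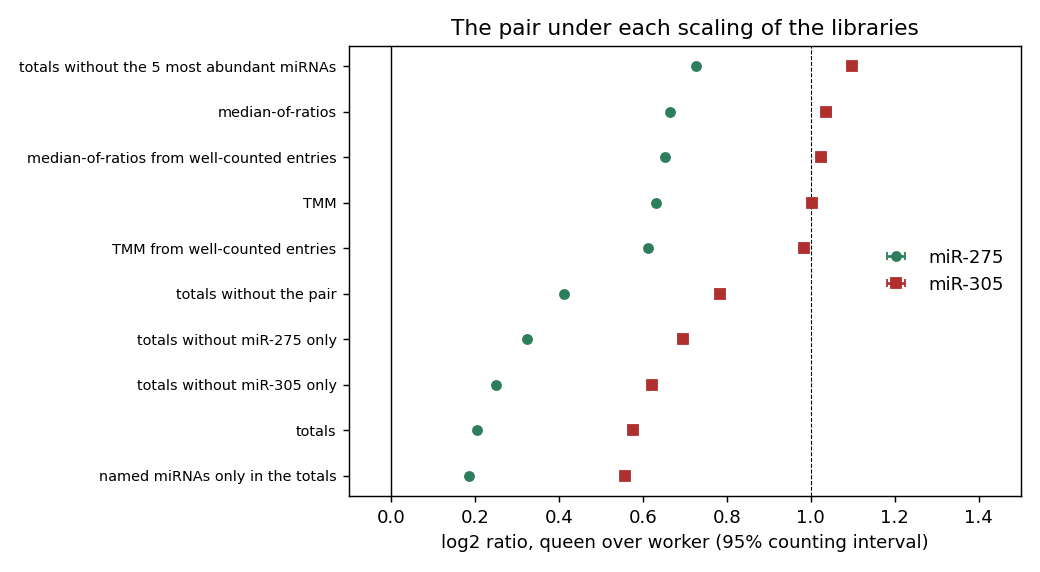
log2 ratio of queen over worker (horizontal axis) of miR-275 (green circles) and miR-305 (red squares) under 10 scalings of the libraries, with 95% counting intervals that are mostly narrower than the symbols. The dashed line marks 2-fold. All 20 points lie above 0. Each scaling moves both miRNAs by the same amount, so miR-305 lies 0.37 to the right of miR-275 in each. The points of miR-305 gather at the dashed line for the TMM and median-of-ratios factors.

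The fourth comparison asked what the pair does to the shares of the other named miRNAs. Since the rest of the library made up 52.3% of queen counts and 60.4% of worker counts, any other miRNA present at an equal level relative to the rest would read 0.867 in the share ratio, or −0.21 on the log2 scale. Leaving the pair out of the totals raised the log2 ratio of each of the other entries by that 0.21. The other 47 named miRNAs with at least 20 counts had a median log2 ratio of −0.39 with the pair in the totals and −0.18 without it. The number above a ratio of 1 went from 10 to 16 and the number below from 37 to 31. This split depends on the scaling: 24 lay above and 23 below with TMM or median-of-ratios factors, where the median was 0.040 and 0.074, and 25 above and 22 below without the 5 most abundant miRNAs, where it was 0.14. Those whose interval excluded 1 on the worker side went from 32 to 24, and those on the queen side from 9 to 13.

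The 6 miRNAs that crossed a ratio of 1 were miR-1000, miR-79, miR-317, miR-100, miR-316 and miR-13a. miR-317 moved from −0.09 (−0.13 to −0.04) to 0.12 (0.08 to 0.16), and miR-100, of the let-7 complex, from −0.15 (−0.18 to −0.11) to 0.06 (0.02 to 0.10). These were the 2 whose interval excluded 1 on opposite sides. miR-79 moved from −0.09 (−0.18 to 0.01) to 0.12 (0.02 to 0.22). miR-1000, miR-316 and miR-13a had 78, 59 and 132 counts over both libraries, and their intervals held 1 both ways.

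At 2-fold, 1 call was lost and 0 were gained. In the worker direction 12 of the 47 were called with the pair in the totals, or 25.5%, and 11 without it, or 23.4%. The miRNA that lost its call was miR-31a, which was 2.24% of queen and 4.99% of worker counts. Without the pair these shares became 4.28% and 8.26%, and its log2 ratio went from −1.16 to −0.95. In the queen direction miR-375 was called both ways, 2.13% of the 47, at 2.85-fold with the pair and 3.28-fold without it. miR-71 had a log2 ratio of −1.30 with the pair and −1.10 without it, and kept its call.

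The same shift applied to the abundant miRNAs. miR-1, the conserved muscle miRNA, was 15.0% of queen and 18.0% of worker counts, a log2 ratio of −0.26, but 28.7% and 29.8% of the counts outside the pair, −0.06 (−0.06 to −0.05). miR-8, which in Drosophila promotes growth in the fat body, had −0.21 with the pair and 0.00 (−0.02 to 0.02) without it. miR-184, which acts in the female germline of Drosophila, was 16.4% and 14.4% of all counts and 31.3% and 23.8% outside the pair. Its log2 ratio rose from 0.19 to 0.39, close to the 0.41 of miR-275 on the same totals. let-7 was at 0.74 and 0.94. Of the other 8 among the 10 most abundant named miRNAs, 4 lay above a ratio of 1 both with and without the pair.

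**Figure D4:**
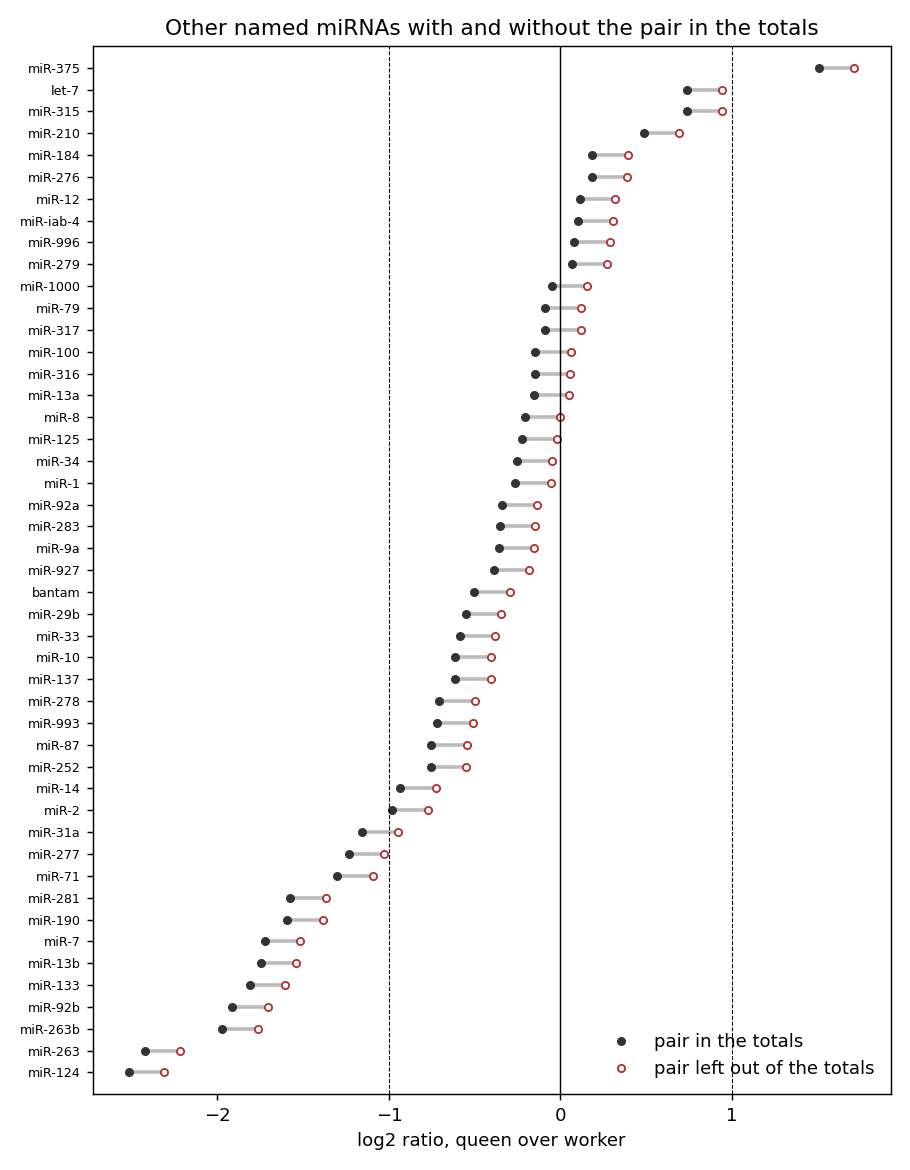
log2 ratio of queen over worker (horizontal axis) of the 47 other named miRNAs with at least 20 counts, with miR-275 and miR-305 in the library totals (filled points) and left out of them (open points). Every row moves right by the same 0.21, the number to the right of the solid line at 0 goes from 10 to 16, and the dashed lines mark 2-fold in each direction.

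The 8.04 percentage points that the pair held above its worker share were matched by losses elsewhere, since shares sum to the whole. Among the other named miRNAs with at least 20 counts, the shares of 37 changed by −10.2 points in all and those of the other 10 rose by 3.59. The losses were led by miR-1 with a change of −2.99 points, miR-31a with −2.75 and miR-71 with −1.72. The gains were led by miR-184 with 2.003 points, let-7 with 0.568 and miR-375 with 0.461. Predicted entries went from 4.76% of worker to 3.36% of queen counts, a change of −1.39 points, and were 7.88% and 6.42% of the counts outside the pair. The counts of the queen library were also spread over fewer miRNAs. The effective number of miRNAs (the inverse of the summed squared shares) was 4.71 in the queen and 5.65 in the worker library, and 5.17 and 6.15 without the pair.

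A list of miRNAs tied to gut, growth or insulin signalling in insects held miR-8, miR-14, miR-33, bantam, miR-277, miR-278, miR-281 and miR-263, and all 8 were measured. With or without the pair in the totals, 0 of 8 were above a ratio of 1. Of the 47 named miRNAs other than the pair, which include these 8, 10 were above 1 with it and 16 without it. The count among the 8 depends on the scaling: miR-8 lay above 1 with TMM or median-of-ratios factors, and miR-8 and bantam without the 5 most abundant miRNAs. The median log2 ratio of the 8 was −0.82, against −0.39 over all 47, and −0.61 against −0.18 without the pair. Of the 8, 3 were past 2-fold toward workers both ways, miR-263, miR-277 and miR-281, against 25.5% and 23.4% of the 47. miR-14, which in Drosophila limits fat storage, had −0.93 and −0.73, and bantam, a growth-promoting miRNA, −0.50 and −0.30. miR-8 had the value nearest to a ratio of 1, given above.

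Levels of miRNAs listed as markers of tissues that whole larvae hold are given beside these results. The muscle miRNAs miR-1 and miR-133, 2 of 2 listed, summed to 150113 counts per 1000000 listed counts (CPM) among queens and 180024 among workers. Almost all of this was miR-1, at a log2 ratio of −0.26. miR-133 had 46 queen and 141 worker counts and a log2 ratio of −1.81, called toward workers. The neuronal miRNAs miR-124, miR-7 and miR-137, 3 of 3 listed, summed to 586 CPM and 2429 CPM. Of these markers miR-1 was not called and miR-137, on 12 and 16 counts, had an interval that held 1. The gut miRNA miR-281 had 7.52 CPM and 22.4 CPM, on 20 and 52 counts. miR-263, of sensory organs and gut, had 1212 CPM and 6508 CPM, and miR-375, listed as an endocrine marker, had 7102 CPM and 2495 CPM. Which tissues these miRNAs mark in bee larvae was not tested. None of these markers was at 0 in either library. The part of tissue make-up in the pair's higher share and ratio in the queen library was not tested.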

How the data were processed

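Small RNA of 18 to 30 nt was cut from a gel, ligated to adapters, amplified and sequenced on the Solexa platform, per the labels' protocols. The values are whole-number counts per miRNA deposited by the authors, with 1 queen and 1 worker column. Not given in the sources used here are the aligner, the caller, the genome build and how multiply matching reads were handled. Another 242 columns have 0 filled cells and were not used. It does not tell the arms of a miRNA apart.

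Shares are of all listed counts, with exact Clopper-Pearson 95% intervals. Queen over worker ratios carry exact conditional intervals, and changes of a within-library ratio carry intervals from the summed reciprocal counts. Without molecular identifiers, PCR reads may be copies of each other, so all intervals cover counting error only. An entry with at least 20 counts was called at a ratio of 2 with an interval excluding 1, and a count of 0 was set to 3 for calling. Neighbours were taken from RefSeq (Amel_HAv3.1), where all 53 names matched. That table gives no strand, so the planned limit to 1 strand was not applied, and its coordinates are not printed. Shared seeds were not examined.

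Named miRNAs were the members, the 10 most abundant, the 3 nearest in ratio to each member with at least 1000 counts, those moved by leaving the pair out, genome neighbours and the gut and growth list. The tissue markers miR-133, miR-124, miR-7, miR-137 and miR-375, fixed as a list, were also given, as was miR-210, which was chosen after its values were seen. Members, lists and alternatives were chosen with earlier results of these data known. Scaling factors came from edgeR 4.0.16 and DESeq2 1.42.0 in R 4.3.3, which gave no tests. Intervals came from scipy 1.17.1, tables from pandas 2.3.3 with numpy 2.4.6, and plots from matplotlib 3.10.9, all under Python 3.11.15. The calling and ratio steps were also run on simulated counts with counting error only, in which, the pair aside, as many entries were raised as lowered. Such counts hold no PCR copies and no spread between libraries, so they are no support for the calls here.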

Additional observations from a re-analysis of the deposited data

How the results depend on the processing

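Factors from entries with at least 20 counts were added after seeing the data. The joint share was 49.3% of queen and 41.6% of worker counts among named miRNAs alone, and 39.7% of worker counts among entries present in both libraries. Each lay above the share of listed counts because its total was smaller. The log2 ratio of miR-305 passed 2-fold at 1.003 with TMM factors, 1.04 with median of ratios (1.02 with well-counted entries) and 1.10 without the 5 leading miRNAs, and fell short at 0.98 with TMM factors from well-counted entries. Each scaling moves all log2 ratios by the same amount, which gives these and the next values. For the other 47 named miRNAs the median log2 ratio of −0.39 became −0.27 without miR-275, −0.18 without the pair, 0.040 with TMM factors (0.021 with well-counted entries), 0.074 with median of ratios (0.061) and 0.14 with totals that omit the 5 leading miRNAs. Those above a ratio of 1 (10) became 16 without the pair, 24 with each TMM or median-of-ratios setting and 25 without the 5 leading miRNAs, and those below (37) became 31, 23 and 22. Calls at 2-fold in the queen direction (1) became 3 with each TMM or median-of-ratios setting and 4 without the 5 leading miRNAs. At 1.5-fold the calls were 3 queen and 20 worker, and at 4-fold 0 and 2. Of 88 values under alternatives that answer a comparison, 54 kept their call or were counted as near the main value. Their size could still change: the log2 ratio of miR-275 went from 0.21 to 0.73 without the 5 leading miRNAs, and worker calls from 12 to 9 with TMM factors. Many of the 88 repeat the same shift of all log2 ratios, so 54 does not measure stability. Leaving out miR-305 alone, other count minimums, neighbour distances of 1 and 50 kb and a 99% interval were among the 54. No paired analysis was possible because there is only 1 library per caste, and none could be left out. Depth does not limit the pair, whose intervals are narrow when reads are taken as independent, but it does limit miR-210, miR-1000, miR-316 and miR-13a.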
